A study of Mus musculus with 4 samples.

Results

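The genes described here are 10 genes of the neuronal cytoskeleton, chosen by name: the intermediate filament genes Nefl, Nefm, Nefh and Ina, the beta-tubulin genes Tubb3 and Tubb2b, the microtubule-associated protein genes Mapt, Map2 and Map1b, and the growth cone gene Gap43. All 10 were found among the 26301 genes of the count table, 8 under the current symbol and 2 under an older one (Map2 as Mtap2 and Map1b as Mtap1b). RNA-seq was done on 2 WT libraries, from the mouse embryonic stem cell (ESC) culture N6, and 2 REST-/- libraries, from the culture N8. No age or treatment is given. Both were grown with leukemia inhibitory factor and serum on irradiated mouse embryonic fibroblasts, then passaged on gelatin to remove the fibroblasts. The question was how loss of REST changes RNA levels. Each genotype was a single culture line, so genotype and line cannot be told apart.

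Neurons are held in shape by microtubules, which are built of alpha- and beta-tubulin and stabilised by associated proteins such as tau, and by neurofilaments. Neurofilaments are intermediate filaments assembled from light, medium and heavy subunits together with alpha-internexin, and they set the calibre of axons. REST is a zinc finger repressor that silences many genes of mature neurons outside the nervous system, by binding a DNA element called RE1.

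Library totals ranged from 22293966 to 30953863 counts assigned to genes, and all 10 genes passed the filter on low counts. Rest RNA was lower in the REST-/- libraries (4244 and 3890 counts) than in the WT libraries (7908 and 6233 counts), with a log2 fold change of -0.52 (SE 0.13) that missed the threshold of edgeR's quasi-likelihood test (adjusted p = 0.526). Reads were totalled per gene whatever exon they fell in, so these values check the labels only in part. Summed over 10 pluripotency markers, levels were 5042 to 5171 CPM (counts relative to library size) in WT and 4314 to 4538 CPM in REST-/- ESCs. Of these markers, Dppa5a was the highest, at 1022 to 1055 CPM in the 4 libraries, and Klf4 the lowest by mean, at 98.5 to 144 CPM.

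Matches to the RE1 motif use genome sequence alone and no RNA level. The motif searched was CAGNACCNNGGACAG, with 12 informative positions out of 15, on both strands of NCBIM37 (mm9). All 4 intermediate filament genes and Tubb3 had a match at all 12 positions within 5 kb of an annotated transcription start, whereas Tubb2b, Mapt, Map2, Map1b and Gap43 had none within 20 kb. Among the 14190 tested genes with a position, 1.74% had such a match within 5 kb and 4.43% within 20 kb. The nearest full match to Mapt was 33312 bases from a start. A match describes letters in the genome, and binding of REST was not measured in these libraries. The paper, which mapped REST binding in ESCs separately, lists Mapt among genes close to REST-bound regions.

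The full matches of the 5 genes are shown 5′ to 3′ on the strand of the match, with the 15 motif bases in capitals and 10 bases on either side, so that the elements can be compared between the genes.
Nefl: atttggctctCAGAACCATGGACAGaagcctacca
Nefm: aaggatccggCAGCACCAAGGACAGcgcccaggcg
Nefh: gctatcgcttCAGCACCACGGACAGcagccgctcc
Ina, intron 1: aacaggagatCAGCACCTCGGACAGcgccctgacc
Ina, upstream: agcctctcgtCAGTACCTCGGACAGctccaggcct
Tubb3, intron 1: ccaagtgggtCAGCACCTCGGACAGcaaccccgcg
The Nefm match (chr14:68743783-68743797, plus strand) lay 887 bases upstream of the start of Nefm. The Nefh match (chr11:4849403-4849417, plus strand) lay 1343 bases upstream, and the Nefl match (chr14:68698546-68698560, plus strand) 3367 bases upstream. Ina had a match in its first intron, 1988 bases downstream of the start (chr19:47091169-47091183, minus strand). A further match lay 8173 bases upstream of Ina (chr19:47081008-47081022, minus strand), inside the neighbouring gene Nt5c2. The Tubb3 match lay in intron 1, 3041 bases downstream of the start (chr8:125938358-125938372, plus strand). In the 15 capital bases, the Tubb3 match and the intronic Ina match were the same.

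Matches at 11 of the 12 positions were present within 20 kb for 3 of the other 5 genes, which is a common state, since 44.26% of tested genes with a position had a match at 11 or more. These are shown because they are the nearest approach to the motif in those genes, with positions counted from 1 at the 5′ end of the motif and the motif's base given first.
Mapt: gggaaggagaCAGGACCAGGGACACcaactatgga
Map1b: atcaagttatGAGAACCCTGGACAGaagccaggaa
Gap43: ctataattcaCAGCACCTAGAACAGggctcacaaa
Mapt differed by G15C and its match lay in an intron, 11951 bases upstream of the nearest of its 12 annotated starts (chr11:104131737-104131751, plus strand). Map1b differed by C1G, 7532 bases downstream of a start (chr13:100279018-100279032, plus strand). Gap43 differed by G11A, 17992 bases upstream of the nearest of its 2 starts and inside its gene (chr16:42294170-42294184, minus strand). For Tubb2b and Map2 the nearest match at 11 or more positions was 61717 and 105681 bases away.

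**Figure D1:**
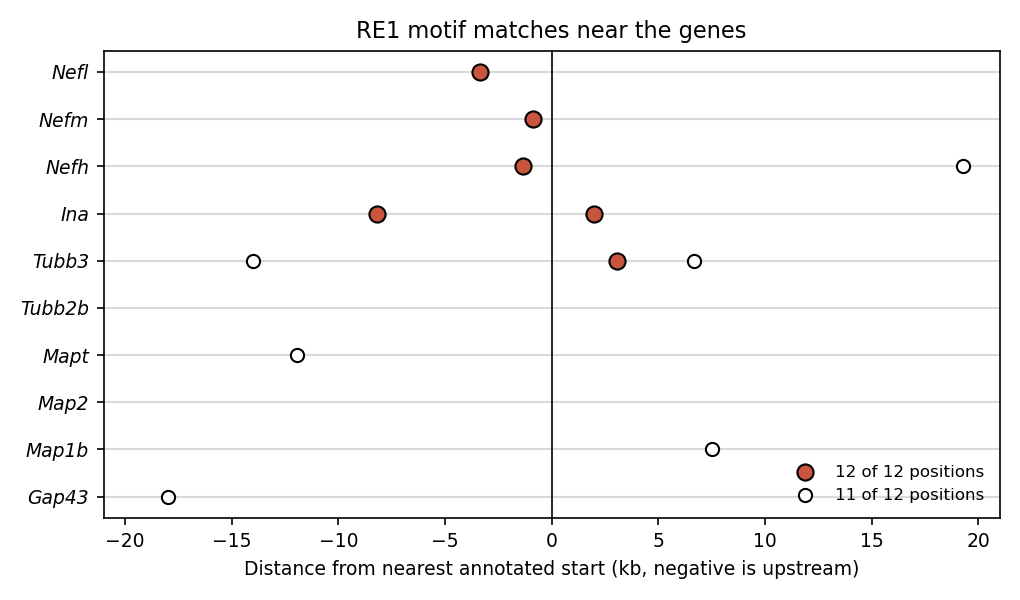
Distance in kb from the nearest annotated transcription start (x axis, negative is upstream) of each RE1 motif match within 20 kb, for the 10 genes (y axis). Filled circles are matches at all 12 informative positions and open circles matches at 11. The filled circles occur at Nefl, Nefm, Nefh, Ina and Tubb3 and at none of the other 5 genes.

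RNA of the 4 intermediate filament genes was higher in both REST-/- libraries than in both WT libraries, by 2.27-fold for Ina to 4.80-fold for Nefm. The 6 other genes showed no such increase, with fitted fold changes between 0.675 for Tubb2b and 1.02 for Map1b. None of the 10 genes passed edgeR's quasi-likelihood test at an adjusted p under 0.05, which called 9 of 15444 genes (0.0583% of those tested). At an unadjusted p under 0.05 the same test gave 5 of the 10, namely Nefl, Nefm, Nefh, Ina and Mapt, against 6.71% of all genes. The study's methods name both tag-wise and common dispersion. With edgeR's exact test with tag-wise dispersion, the 4 intermediate filament genes rose and passed the threshold, against 1.16% of all tested genes called as higher. DESeq2 called the same 4, against 1.17% of all genes called as higher, and the exact test with common dispersion called Nefm alone, against 1.59%. With common dispersion, edgeR's exact test gave an adjusted p of 0.0638 for Nefl, 0.0784 for Nefh and 0.123 for Ina, which missed the threshold. Both REST-/- libraries were above both WT libraries for 16.5% of tested genes, and both below for 15.4%. The 2 libraries of a genotype are given as biological replicates.

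Nefl encodes the light neurofilament subunit, the core on which the filament forms (Entrez 18039, chr14:68701920-68707152). Its counts were 811 and 821 in WT ESCs (26.2 and 30.7 CPM) compared with 1988 and 1384 in the mutant (76.9 and 62.5 CPM). The genotypes did not overlap, and the REST-/- libraries were the more spread. Means with SD (n = 2) were 28.4 ± 3.15 CPM for WT and 69.7 ± 10.2 CPM for REST-/- ESCs. The log2 fold change was 1.29 (SE 0.19, 95% interval 0.79 to 1.80), with an adjusted p of 0.21 by edgeR's quasi-likelihood test and 0.00302 by edgeR's exact test with tag-wise dispersion.

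Nefm encodes the medium subunit (Entrez 18040, chr14:68700647-68742903) and was the lowest of the 4 in WT ESCs. WT ESCs gave 185 and 96 counts (5.98 and 3.58 CPM), and REST-/- ESCs gave 816 and 318 (31.6 and 14.4 CPM). The genotypes did not overlap, but REST-/- replicate 1 lay well above replicate 2. The log2 fold change was 2.26 (SE 0.51, 95% interval 0.90 to 3.62), with an adjusted p of 0.456 by edgeR's quasi-likelihood test and 0.00105 by its exact test with tag-wise dispersion. It was 1.59 without REST-/- replicate 1 and 2.72 without REST-/- replicate 2, where the quasi-likelihood test gave an adjusted p of 0.0348. Without WT replicate 1 it was 2.67 and without WT replicate 2 it was 1.94, so the size of the increase depended on the libraries of both genotypes.

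In the same library, REST-/- replicate 1, the summed level of 10 fibroblast markers was 129 CPM, compared with 28.5 CPM in REST-/- replicate 2 and a WT range of 30.9 to 41.6 CPM. Col1a1, a collagen gene and the most abundant of these markers, was at 46.1 CPM there and at 6.42 to 11.8 CPM in the other 3 libraries, while Lum had 0 counts in all 4. The part of these markers in the Nefm difference was not tested. In REST-/- replicate 2, Nefl, Nefm, Nefh and Ina were each above both WT libraries. Without REST-/- replicate 1 the log2 fold changes were 1.59 for Nefm, 1.14 for Nefl, 1.21 for Nefh and 1.24 for Ina, each from a single REST-/- library.

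Nefh encodes the heavy subunit, whose long phosphorylated tail projects from the filament (Entrez 380684, chr11:4838757-4848067). From 1213 and 1081 counts in WT (39.2 and 40.4 CPM), it was up to 2553 and 2035 in REST-/- ESCs (98.8 and 91.9 CPM). Replicates lay close together and the genotypes were far apart. Its fitted log2 fold change was 1.26 (SE 0.14, 95% interval 0.89 to 1.63), with an adjusted p of 0.113 by edgeR's quasi-likelihood test and 0.00178 by its exact test with tag-wise dispersion.

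Ina encodes alpha-internexin, the filament protein that appears early in developing neurons (Entrez 226180, chr19:47089188-47099817). Counts of 1653 and 1511 in WT (53.4 and 56.4 CPM) compared with 3095 and 2861 in REST-/- ESCs (119.8 and 129 CPM). As for Nefh, the spread within each genotype was small beside the difference. A log2 fold change of 1.18 (SE 0.14, 95% interval 0.82 to 1.54) was fitted, with an adjusted p of 0.124 by edgeR's quasi-likelihood test and 0.00217 by its exact test with tag-wise dispersion. Leaving out any library kept it between 1.12 and 1.24.

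Some of these counts could be shared with a neighbour on the opposite strand, because the library kit does not mark strand. Nefl and Nefm lie on opposite strands, and 1108 bases of annotated exons are common to both, or 32.8% of the merged exons of Nefl and 19.2% of those of Nefm. The overlap comes from a long Nefm transcript that the annotation marks as putative. Their counts are uncertain for that reason, by an amount that was not measured. The annotation used for the counting is not given. Ina shares 456 bases (14.1% of its exons) with Nt5c2, a nucleotidase gene. Nt5c2 had 64.7 and 70.0 CPM in WT and 61.0 and 65.0 CPM in REST-/- ESCs, a log2 fold change of -0.10 (SE 0.14), and its libraries overlapped between the genotypes.

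**Figure D2:**
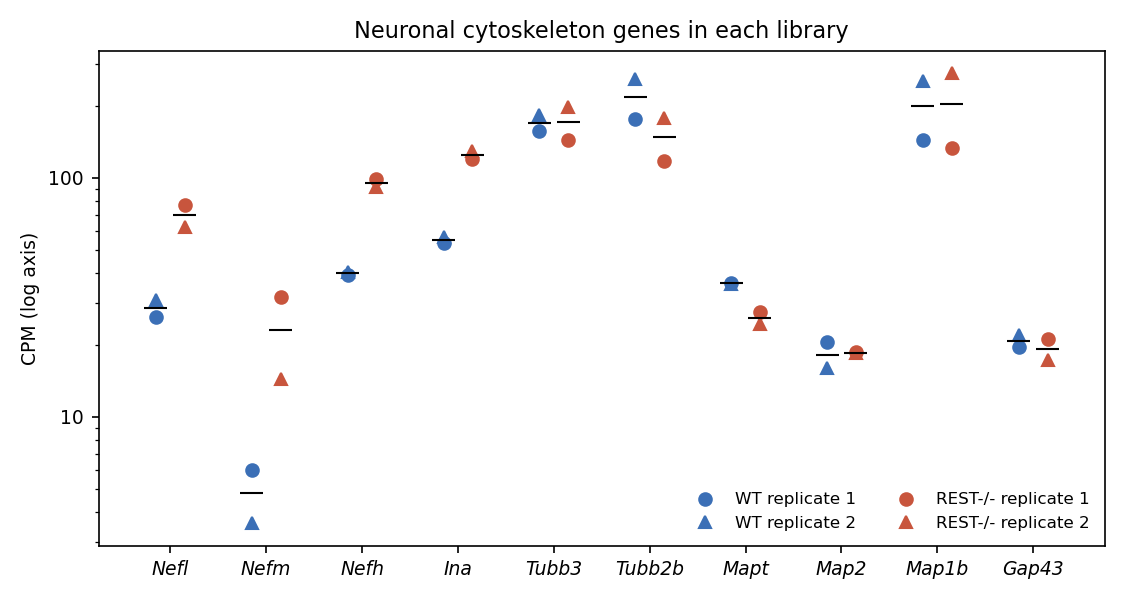
CPM (y axis, log axis) of the 10 genes in each library. Circles are replicate 1 and triangles replicate 2, in blue for WT and red for REST-/-, and black bars are the means of 2 libraries. Nefl, Nefm, Nefh and Ina have both red points above both blue points, and Mapt has both below.

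Since reads scale with transcript length, levels were compared between genes as CPM per kb of the transcript with the longest coding sequence. Summed over the 4 intermediate filament genes, the level was 35.8 and 37.7 CPM per kb in WT ESCs and 94.0 and 85.7 CPM per kb in REST-/- ESCs. The makeup of this sum differed most in REST-/- replicate 1, where the share of Ina was lowest and that of Nefm highest. Ina made up 46.0% and 46.2% in WT and 39.4% and 46.5% in REST-/- ESCs, and Nefh 27.4% and 26.8% against 26.3% and 26.9%. Nefl made up 21.6% and 24.1% in WT and 24.2% and 21.6% in REST-/- ESCs. Nefm held 5.0% and 2.85% in WT and 10.1% and 5.03% in REST-/- ESCs, the higher share again in REST-/- replicate 1.

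**Figure D3:**
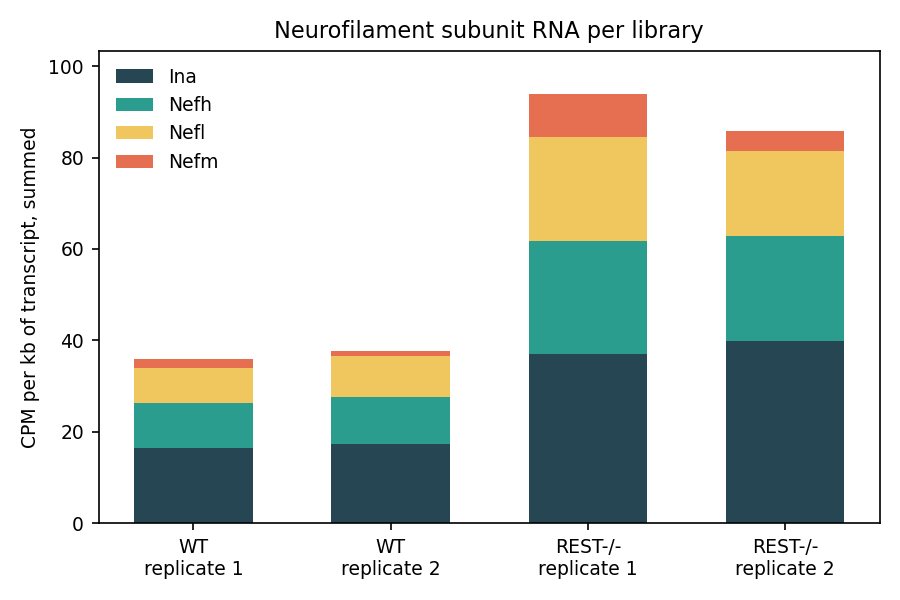
Level in CPM per kb of transcript (y axis) of Ina, Nefh, Nefl and Nefm, stacked in each of the 4 libraries (x axis). The columns reach 35.8 and 37.7 for WT and 94.0 and 85.7 for REST-/-.

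Tubb3, the class III beta-tubulin widely used as a marker of neurons (Entrez 22152, chr8:125935324-125945915), did not follow the filament genes, although it has a full RE1 match. Its counts were 4857 and 4905 in WT (157 and 183 CPM) compared with 3729 and 4397 in REST-/- ESCs (144 and 198.5 CPM). The REST-/- libraries lay on either side of the WT libraries. The log2 fold change was 0.01 (SE 0.21), and the 95% interval of -0.54 to 0.56 leaves out increases of the size fitted for the 4 filament genes. Mc1r, the melanocortin receptor gene that starts 7383 bases from the same RE1 match, had only 10 to 22 counts in every library. Its log2 fold change was -0.31 (SE 0.53), and its libraries overlapped between the genotypes.

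Tubb2b, a beta-tubulin of developing neurons (Entrez 73710, chr13:34218877-34222223), had 177 and 260.3 CPM in WT and 117 and 178 CPM in REST-/- ESCs. REST-/- replicate 2 was just above WT replicate 1, so the genotypes overlapped. The log2 fold change was -0.57 (SE 0.30, 95% interval -1.35 to 0.22), with an adjusted p of 0.931 by edgeR's quasi-likelihood test. It was -0.90 without REST-/- replicate 2, -0.29 without REST-/- replicate 1, and within -0.90 to -0.26 with any 1 library left out.

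The transcript of Tubb2b is 96.4% identical to that of its paralog Tubb2a over 1350 bases (70.2% of its length), so reads could be placed on either gene. Tubb2a had 16.8 and 33.4 CPM in WT and 15.0 and 28.3 CPM in REST-/- ESCs, far below Tubb2b in each library. Of the summed CPM per kb of 8 beta-tubulin genes, Tubb2b made up 11.1% and 12.6% in WT and 6.93% and 8.64% in REST-/- ESCs. Tubb3 made up 10.1% and 9.12% in WT and 8.76% and 9.91% in REST-/- ESCs. On this scale of shares the Tubb2b values of the genotypes did not overlap and those of Tubb3 did. Most beta-tubulin RNA came from the widely expressed genes Tubb4b (29.6% to 40.5%) and Tubb5 (31.3% to 37.0%).

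Mapt, which encodes tau, a protein that stabilises axonal microtubules (Entrez 17762, chr11:104092704-104193404), was the only gene of the 10 with both REST-/- libraries below both WT libraries. WT ESCs gave 1127 and 964 counts (36.4 and 36.0 CPM), and REST-/- ESCs gave 705 and 543 (27.3 and 24.5 CPM). The replicates of each genotype were close. Its log2 fold change was -0.48 (SE 0.16, 95% interval -0.92 to -0.05), with an unadjusted p of 0.0361 and an adjusted p of 0.707 by edgeR's quasi-likelihood test. With any 1 library left out it stayed between -0.56 and -0.41.

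Map2, the microtubule-associated protein of dendrites (Entrez 17756, chr1:66221847-66489157), had 20.5 and 16.0 CPM in WT and 18.7 and 18.4 CPM in REST-/- ESCs. Both REST-/- values lay between the WT values. Its log2 fold change was 0.02 (SE 0.22, 95% interval -0.56 to 0.60).

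Map1b, a microtubule-associated protein of growing axons (Entrez 17755, chr13:100191419-100286557), had 144.5 and 254 CPM in WT and 134 and 274 CPM in REST-/- ESCs. Replicate 2 was the higher library in each genotype, and the spread within a genotype exceeded the difference between them. Its log2 fold change was 0.03 with the widest interval of the 6 genes outside the filament group, -1.16 to 1.22, so a 2-fold change in either direction lay within the interval.

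Gap43, a membrane protein of growth cones (Entrez 14432, chr16:42248555-42340764), had 19.5 and 22.0 CPM in WT and 21.1 and 17.3 CPM in REST-/- ESCs. The genotypes overlapped. Its log2 fold change was -0.11 (SE 0.21, 95% interval -0.67 to 0.45).

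**Figure D4:**
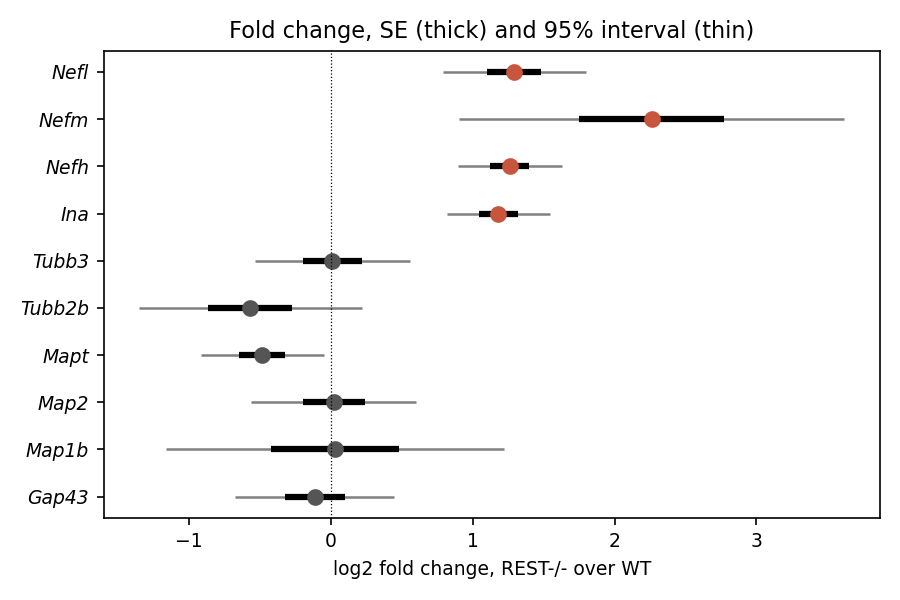
Log2 fold change of REST-/- over WT ESCs (x axis) for the 10 genes (y axis) from edgeR's quasi-likelihood fit. Points are the estimates, thick bars ± 1 SE and thin bars the 95% interval, with the 4 intermediate filament genes in red. The red intervals lie above 0, that of Mapt lies below 0, and those of the other 5 genes include 0.

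The 10 genes were all transcribed in WT ESCs, at very different levels. Per kb of transcript, Tubb2b (114 ± 30.6 CPM per kb, SD, n = 2) and Tubb3 (91.0 ± 9.93) were highest, at the 95.5th and 93.7th percentile of the 13634 tested genes with a transcript length. Tubb2b was the higher within each WT library, but the ranges of these genes overlapped. Ina (16.9 ± 0.659), Map1b (16.8 ± 6.56), Mapt (16.1 ± 0.13) and Gap43 (14.6 ± 1.25) followed. The range of Ina lay above that of Mapt and the range of Mapt above that of Gap43, whereas Map1b overlapped all of these. Nefh (9.96 ± 0.209), Nefl (8.41 ± 0.932), Map2 (2.92 ± 0.504) and Nefm (1.43 ± 0.507) came last, with no overlap between neighbours.

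In REST-/- ESCs, Tubb3 (91.8 ± 20.5 CPM per kb, SD, n = 2) and Tubb2b (76.9 ± 22.3) again overlapped at the top, with Tubb3 now the higher within each library, followed by Ina (38.4 ± 2.04), which was apart from the rest. Nefh (23.9 ± 1.23), Nefl (20.6 ± 3.03) and Map1b (17.2 ± 8.37) came next, with the range of Nefh above that of Nefl and Map1b overlapping both. Gap43 (13.5 ± 1.91), Mapt (11.5 ± 0.871), Nefm (6.89 ± 3.65) and Map2 (2.96 ± 0.0318) were the lowest. Neighbours among these did not overlap. Nefh and Nefl thus stood below Map1b and Gap43 by mean in WT ESCs and above them in REST-/- ESCs, on either length. The place of Mapt depended on the length. With all merged exons, it was at 4.81 CPM per kb in WT ESCs, below Nefh and Nefl, and at 3.44 in REST-/- ESCs, below Nefm at 3.97. On that length Map2 was at 1.11 and Nefm at 0.827 CPM per kb in WT ESCs, while Tubb2b, Tubb3 and Ina kept their places in both genotypes.

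The same cultures were read for markers of neurons, to show whether the filament genes stood alone. Summed over 10 neuron markers, levels were 156 and 235 CPM in WT and 301 and 344.5 CPM in REST-/- ESCs, both REST-/- libraries being higher. Most of the WT sum was Stmn2, a stathmin of growing neurons, at 124 and 193 CPM in WT and 119.9 and 159 CPM in REST-/- ESCs, which overlapped. Dcx, the doublecortin gene of migrating neurons, had 1 to 8 counts in a library. Of the 8 neuron markers tested, 3 rose by edgeR's exact test with tag-wise dispersion, against 1.16% of all genes. A full RE1 match lay within 5 kb for 5 of the 8, against 1.74% of tested genes with a position.

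Neural progenitor markers summed to 67.3 and 163 CPM in WT and 135.0 and 157 CPM in REST-/- ESCs, which overlapped, with Nes at 50.2 to 148 CPM and Neurog2 at 0 to 2 counts. Primitive endoderm markers summed to 131 and 229 CPM in WT and 295.5 and 362 CPM in REST-/- ESCs. Among them Col4a1 was at 59.9 and 117 CPM in WT and 145 and 175 CPM in REST-/- ESCs, and Sox17 was at 0.406 to 0.890 CPM in the 4 libraries. By the exact test with tag-wise dispersion, 3 of 10 primitive endoderm markers rose (1.16% of all genes), and 2 of 10 pluripotency markers and 1 of 5 tested neural progenitor markers fell (0.35% of all genes). The neuron and primitive endoderm sums were thus higher, and the pluripotency sum lower, in both REST-/- libraries than in both WT libraries, and their part in the filament result was not tested. In these bulk samples, more cells of a type and more RNA per cell cannot be told apart.

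A wider set of 91 cytoskeleton genes in 5 lists, of which 88 were tested, gave a median log2 fold change of 0.02. The median was -0.005 over all tested genes and 1.28 for Nefl, Nefm, Nefh and Ina. None of the 88 passed edgeR's quasi-likelihood test, and 7 had an unadjusted p under 0.05, against 6.71% of all genes. The exact test called 1 as higher with tag-wise dispersion (1.16% of all genes) and 3 with common dispersion (1.59%), and DESeq2 called 2 (1.17%). With tag-wise dispersion the gene was Lmna, with common dispersion Tppp, Ank1 and Cdk5r2, and with DESeq2 Lmna and Cdk5r2. Both REST-/- libraries were above both WT libraries for 17 of the 88 (16.5% of all genes) and below for 8 (15.4%), so the wider set lay near the background.

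The 16 tested tubulin genes outside the 10 had a median log2 fold change of -0.12. Of these, 1 had both REST-/- libraries above (16.5% of all genes) and 3 had both below (15.4%). Tubb6 (0.63, SE 0.40) and Tuba4a (0.38, SE 0.25) had the largest positive values, with overlapping libraries. With any 1 library left out, Tubb6 ranged from 0.18 to 1.27 and Tuba4a from 0.12 to 0.64. Tuba3a (-0.83, SE 0.29), a testis alpha-tubulin with near-identical copies, was lower in both REST-/- libraries, at 5.92 and 6.77 CPM compared with 9.34 and 13.2 CPM in WT. Tubg2, a gamma-tubulin of microtubule nucleation, had -0.24 (SE 0.34).

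Among the 12 other intermediate filament genes, the median was 0.32, and 8 were above 0. Lmna, which encodes the nuclear lamins A and C, rose by the exact test with tag-wise dispersion. It was at 50.3 and 59.8 CPM in WT and 114 and 118.0 CPM in REST-/- ESCs, a log2 fold change of 1.08 (SE 0.16). By edgeR's exact test the adjusted p was 0.0117 with tag-wise dispersion and 0.219 with common dispersion. It was 0.199 by edgeR's quasi-likelihood test and 0.00294 by DESeq2. Lmna has no full RE1 match within 20 kb. Prph, a further neuronal filament gene, did not move with the neurofilament genes, with 24.3 and 46.0 CPM in WT and 27.8 and 32.0 CPM in REST-/- ESCs and a log2 fold change of -0.23 (SE 0.35). Krt8, a keratin of simple epithelia, varied more within genotypes (27.6 and 136 CPM in WT, 84.5 and 214 CPM in REST-/- ESCs) than between them. Synm, which encodes synemin, had a log2 fold change of -0.10 (SE 0.31).

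The 23 tested genes of other microtubule-associated proteins had a median of -0.01. Tppp, which promotes tubulin polymerization, had the largest value (1.66, SE 0.42) on 12 and 16 counts in WT ESCs against 40 and 35 in REST-/- ESCs. Dclk1, a kinase related to doublecortin, had 1.04 (SE 0.77), which came from REST-/- replicate 1 (5.65 CPM, against 1.22 to 1.71 CPM in the other 3 libraries) and was -0.46 without it. Tppp3 (-0.52, SE 0.28) and Map4 (-0.29, SE 0.17), the ubiquitous relative of Map2 and tau, were lower in both REST-/- libraries. With any 1 library left out, Tppp3 ranged from -0.73 to -0.27 and Map4 from -0.435 to -0.12.

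Among the 20 genes of the growth cone and membrane skeleton, the median was 0.14, and 7 had both REST-/- libraries above both WT libraries (16.5% of all genes), with none below (15.4% of all genes). Ank1, an ankyrin that ties spectrin to membranes, was at 1.62 and 1.38 CPM in WT and 3.41 and 6.73 CPM in REST-/- ESCs, a log2 fold change of 1.75 (SE 0.45). Crmp1, a collapsin response mediator of growth cones, was at 107 and 128 CPM in WT and 196.5 and 188 CPM in REST-/- ESCs, a log2 fold change of 0.71 (SE 0.15) with an adjusted p of 0.422 by edgeR's quasi-likelihood test. Among genes of at least 1 CPM, Add3 (-0.41, SE 0.33) and Ank3 (-0.32, SE 0.37) had the largest negative values, and their libraries overlapped.

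The 17 genes of kinases that act on tau and neurofilaments had a median of 0.003. Both neuronal activators of the kinase Cdk5 were higher in both REST-/- libraries. Cdk5r2 had 2.81 and 2.54 CPM in WT and 8.59 and 7.0 CPM in REST-/- ESCs, a log2 fold change of 1.54 (SE 0.29), with an adjusted p of 0.338 by edgeR's quasi-likelihood test, 0.0959 by its exact test with tag-wise dispersion and 0.0131 by DESeq2. Cdk5r1 had 2.94 and 2.58 CPM in WT and 6.08 and 5.64 CPM in REST-/- ESCs, a log2 fold change of 1.09 (SE 0.28) with an adjusted p of 0.561. Camk2b (-0.37, SE 0.26) and Mapk3 (-0.16, SE 0.37) had the largest negative values in this list among genes of at least 1 CPM, with overlapping libraries.

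**Figure D5:**
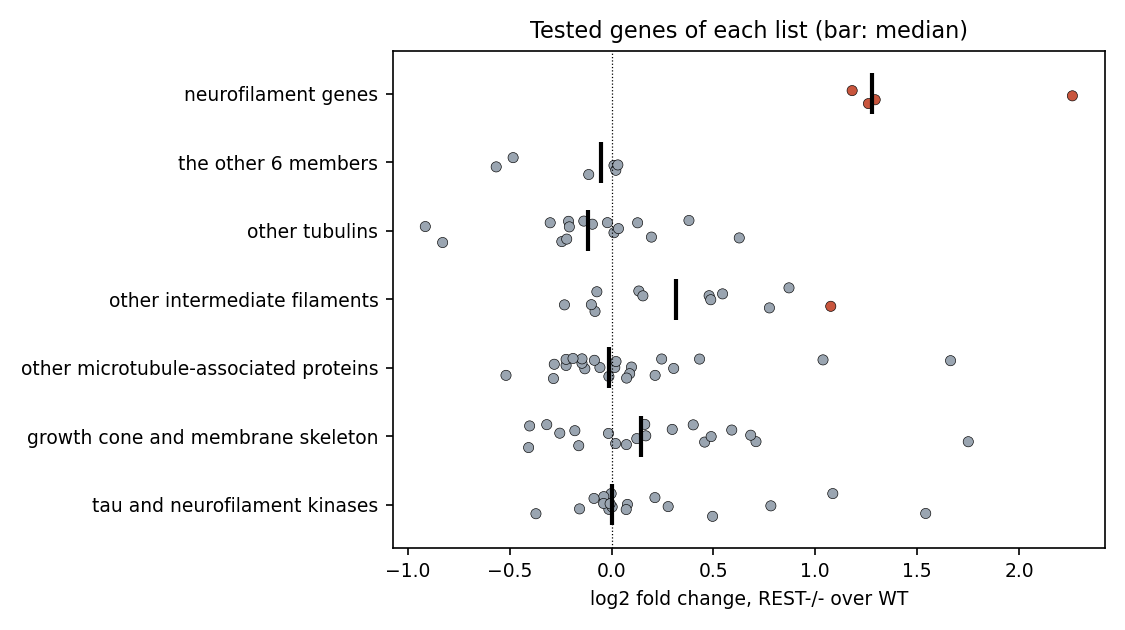
Log2 fold change of REST-/- over WT ESCs (x axis) for each tested gene of the neurofilament genes, the other 6 of the 10 genes and the 5 wider lists (y axis, with points spread vertically only for legibility). Black bars are medians, and red points passed edgeR's exact test with tag-wise dispersion. The neurofilament genes are at 1.18 to 2.26 and all red, and the only other red point is Lmna at 1.08.

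Of the 87 wider genes with a position, 4 had a full RE1 match within 5 kb (1.74% of tested genes with a position). These were Cdk5r1 at 6 bases from a start, Sptbn4 at 91 bases, Ank1 at 207 bases and Cdk5r2 at 3137 bases. All 4 had both REST-/- libraries above both WT libraries (16.5% of all genes). For Sptbn4, a spectrin of the axon initial segment named for its match rather than its level, this was nearly a tie. Its REST-/- replicate 2 was at 78.4 CPM and WT replicate 1 at 78.3 CPM. Its log2 fold change was only 0.30 (SE 0.21). Across all tested genes with such a match, 114 of 247 had both REST-/- libraries above (16.5% of all genes) and 17 both below (15.4%). Their median log2 fold change was 0.32. The 4 filament genes were thus above that median, and Tubb3 was below it. For the 103 tested genes with a full match within 1 kb, a group that holds Nefm, the median was 1.12.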

How the data were processed

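The authors extracted total RNA with TRIzol, made TruSeq RNA v2 libraries, mapped reads with Subread and deposited whole-number featureCounts counts per Entrez gene, without normalization; mm9 is the build in the submitters' processing notes, and the annotation and strand setting are not given in the sources used here. Of the rows, 368 had no gene identifier or value and were left out. The files hold no columns of other samples.

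The 10 genes, the wider lists and the marker lists were chosen with earlier results of these data known. Symbols came from RefSeq (GRCm38.p6 table, names only; 24191 identifiers matched), and positions and lengths from GENCODE M1 on NCBIM37 (21916 matched). Counts were scaled by TMM, filtered with filterByExpr (minimum count 10), and 15444 genes were tested with edgeR 4.0.16's quasi-likelihood test on genotype alone (R 4.3.3, prior count 0.125, Benjamini-Hochberg adjusted p under 0.05 over all genes). CPM used TMM-scaled library sizes, where 3 counts are 0.0969 to 0.135 CPM, a floor that covers counting error only. Alternatives were RLE and library-size scaling, no filter, at least 10 counts in every library, DESeq2 1.42.0, edgeR's exact tests (tag-wise or common dispersion), a prior count of 2, a block on replicate number, and leaving out each library. Merged exons as the length were added after seeing the data. Copies were sought with BLAST+ 2.17.0 at 90% identity over at least 200 bases. Fits and the motif search were tested on simulated data.

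Named were all 10 genes, Rest, Tubb2a and, in each wider list, genes with an adjusted p under 0.05 plus the 2 highest and 2 lowest log2 fold changes among genes whose higher genotype averaged at least 1 CPM. In each marker list the genes with the highest and lowest mean CPM were named. Nt5c2, Mc1r, Sptbn4, Tubb1, Tubb4b and Tubb5 fall outside this rule and were named after their values were seen.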

Additional observations from a re-analysis of the deposited data

How the results depend on the processing

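The 9 genes called by edgeR's quasi-likelihood test became 53 with no filter, 3 with at least 10 counts in every library, 233 and 343 with the exact tests of tag-wise and common dispersion, 238 with DESeq2, and 60 to 113 with a library left out. Of the 10 neuronal cytoskeleton genes, 4 were called by tag-wise dispersion, 1 by common dispersion, 4 by DESeq2 and 0 to 1 with a library left out. Of the wider lists, 1, 3 and 2 genes were called by tag-wise dispersion, common dispersion and DESeq2. With RLE or library-size scaling or a prior count of 2, 0 of the 10 and 0 of the wider genes were called. The median log2 fold change of the 10 genes was 0.024 to 0.345 with a library left out (0.345 without REST-/- replicate 1 and 0.314 without WT replicate 2). The cause was not tested.

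With the replicate number as a block, 2621 genes, 6 of the 10 (Nefl, Nefm, Nefh and Ina higher, Mapt and Tubb2b lower) and 23 of the wider lists were called, and Tubb3 and Map1b changed sign, to -0.002 and -0.001. The labels give no link between same-numbered libraries. Their deviations from the genotype means correlated at r = 0.766 across 15444 genes, which are not independent replicates, so the pairing is a hint from the data alone.

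With a library left out, the log2 fold changes of these genes crossed 0, and all had been near it or had overlapping libraries: Tubb3 -0.24 to 0.23, Map2 -0.14 to 0.20, Map1b -0.58 to 0.50, Gap43 -0.26 to 0.02, Prph -0.63 to 0.30, Synm -0.48 to 0.20, Dclk1 -0.46 to 1.74, Add3 -0.73 to 0.00, Ank3 -0.70 to 0.20, Mapk3 -0.59 to 0.26 and Tubb2a -0.75 to 0.37. No alternative changed the sign of Nefl, Nefm, Nefh, Ina, Mapt or Tubb2b.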
